A study of Populus tremula x Populus tremuloides with 22 samples.

Results

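In stems of hybrid aspen, 57 of 34699 counted genes stood in a graded order, lowest in wild type (WT), higher in trees carrying Arabidopsis LBD4 and highest in trees carrying Arabidopsis LBD11. They were chosen by their measured read counts. Counts were scaled to counts per 1000000 of each library's total (CPM), and L is log2(CPM + 0.5). A gene was taken if its mean in WT was at least 1 CPM, if the mean L of each LBD4 line lay at least 0.4 above the WT mean, and if the mean L of each LBD11 line lay above that of every LBD4 line. Genes of chromosome 13 between 15567206 and 15657495 were left out. That stretch holds 44 genes, 5 of which would otherwise have passed.

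The material was stem internodes of 3-week-old Populus tremula x Populus tremuloides trees grown in a greenhouse, and polyadenylated RNA was sequenced. WT was represented by 5 libraries. The trees labelled LBD4-OE, which overexpress heterologous LBD4, gave 8 libraries from line 11 (3), line 14 (2) and line 17 (3). Those labelled LBD11-OE, which overexpress heterologous LBD11, gave 9 libraries, 3 each from lines 1, 2 and 14. The last of these is numbered 3 in its genotype label, and the number in the title was used. The series title describes the overexpression as xylem-specific, and no source used here names the promoter that drives it. The libraries held 23437445 to 41969957 counts. Nothing in the labels says that the libraries of a line came from separate trees, so tests measure only the spread between these libraries, which may be technical.

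LBD proteins are plant transcription factors named after the LATERAL ORGAN BOUNDARIES gene of Arabidopsis, and share a conserved DNA-binding domain. In Arabidopsis, LBD4 and LBD11 are among the members of the family that act in the vascular tissue and in the secondary growth of stems and roots. Secondary growth is driven by the cambium, a ring of dividing cells that forms wood (xylem) inward and phloem outward. A stem internode holds all of these tissues together with cortex, pith and epidermis. In such bulk samples a higher count from more cells of a type cannot be told apart from more RNA per cell.

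Identifiers come without gene names in these files, and no annotation was used here. What the 57 genes encode is therefore not given, the tissue label could not be checked against marker genes, and identifiers are printed only for the 2 members with the largest difference between LBD11-OE and WT. Other members are given by their position. The identifiers carry the suffix v4.1 of their gene models, and positions are as in the files, which do not state their base.

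The selection narrowed in steps. Outside the stretch of chromosome 13, 22726 genes had a WT mean of at least 1 CPM and 214 of these lay at least 0.4 above WT in each LBD4-OE line. The 57 members were 26.6% of those 214. Of the other 157, 83 were at least 0.4 above WT in each LBD11-OE line without lying above every LBD4-OE line, and 21 had at least 1 LBD11-OE line below the WT mean. The limits cut through a continuum. The 2 members nearest the rise limit had a smallest LBD4-OE line difference of 0.402 and 0.411 on the log2 scale, and the nearest genes outside it had 0.397 and 0.396. At the order limit the gap between the lowest LBD11-OE line and the highest LBD4-OE line was 0.0013 and 0.0163 for the members nearest to it, against -0.0013 and -0.0044 just outside. At the WT limit the members had 1.02 and 1.13 CPM, and the genes just outside had 0.918 and 0.885 CPM.

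Some libraries stood apart in ways that touch these genes. WT replicate 3 was the lowest of the 5 WT libraries for 40 of the 57 members. Its median member lay 0.38 below the WT mean on the log2 scale (a value of -0.38), while the other WT libraries had medians of 0.03 to 0.14. A low value in this library lowers the WT mean that the rule compares with, so the rule can favour genes low in it. The same count over all genes is not given here. For this reason the rule was also applied without WT replicate 3. The rule then found 40 genes, 35 of them among the 57. In addition, 6 genes split all 22 libraries in the same way into a set of 15 and a set of 7, with a gap of at least 2.09 on the log2 scale. The smaller set holds WT replicate 3, the 3 libraries of LBD4-OE-11 and the 3 of LBD11-OE-2. These sets were read from the counts and the labels do not name them. Values within each set are given for the members' median steps, for the first-step calls in the larger set and for the 2 named genes.

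WT had a median over the members of 5.53 CPM, which compares with 13.1 CPM for LBD4-OE and 20.4 CPM for LBD11-OE. Per gene, LBD4-OE lay 0.43 to 2.67 above WT in mean L, with a median of 0.65, and LBD11-OE lay 0.55 to 3.93 above WT, with a median of 1.26. Over all 22726 genes at 1 CPM or more in WT the medians were -0.02 and -0.05. These differences chose the members and are a description. The members' WT levels ran from 1.02 to 214 CPM, and 22 members were at 10 CPM or more. Levels are compared only within a gene, since the files give the span of each gene model with its introns and not the length of its transcript.

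**Figure D1:**
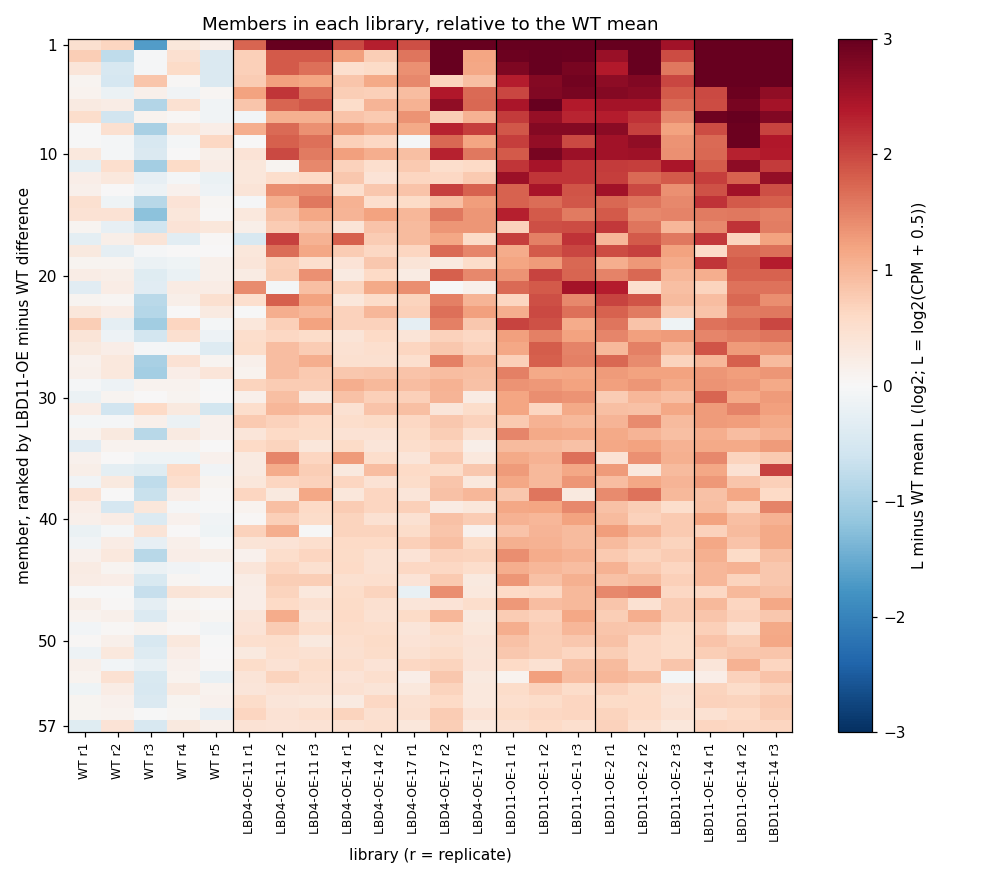
Value of each of the 57 members (rows, ranked by the LBD11-OE minus WT difference) in each of the 22 libraries (columns), as L minus the WT mean L on a log2 scale, with colours cut at -3 and 3. WT libraries are pale with replicate 3 bluest, LBD4-OE libraries are light red and LBD11-OE libraries are darkest, most so in the top 13 rows.

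The medians per library are of the same values that chose the members, and describe their spread. The median member lay 0.37 to 0.82 above the WT mean in the 8 LBD4-OE libraries and 0.97 to 1.33 above it in the 9 LBD11-OE libraries. The lowest LBD4-OE library was LBD4-OE-11 replicate 1 and the highest LBD4-OE-17 replicate 2. Of LBD11-OE, replicate 3 of line 2 was lowest at 0.97 and the next library stood at 1.19. The members together took 0.111% to 0.166% of all counts in WT, 0.189% to 0.277% in LBD4-OE and 0.251% to 0.343% in LBD11-OE.

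**Figure D2:**
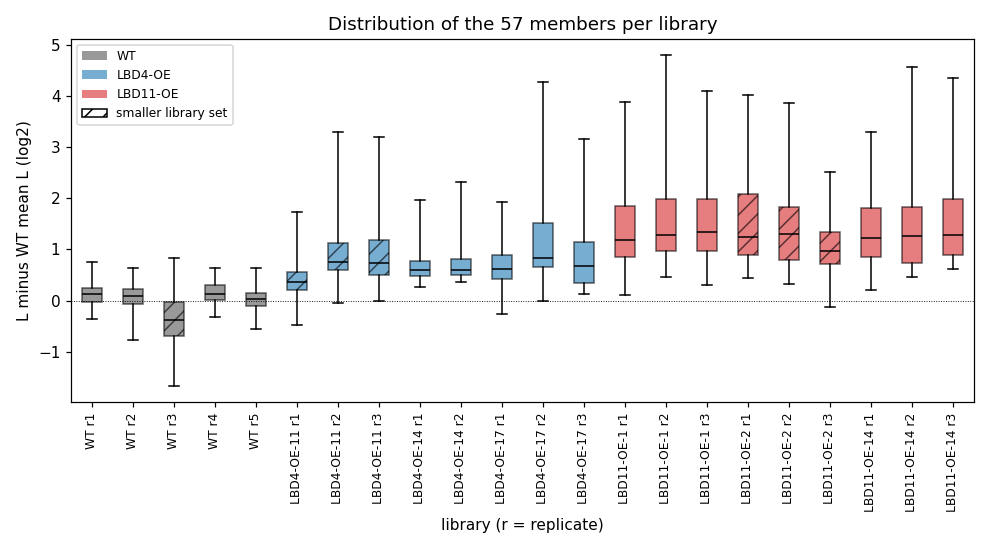
Distribution over the 57 members of L minus the WT mean L (log2) in each library, with boxes for the quartiles, a line for the median and whiskers to the lowest and highest member, coloured by construct and hatched for the smaller library set. LBD4-OE medians lie between 0.37 and 0.82 and LBD11-OE medians between 0.97 and 1.33, while WT replicate 3 lies below the other WT libraries at -0.38.

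For single genes the libraries overlapped more. In 52 of the 57 members every LBD11-OE library lay above every WT library, where 4.36% of all genes at 1 CPM or more in WT did so. In 26 members every LBD4-OE library lay above every WT library (1.1% of all genes), and in 11 every LBD11-OE library lay above every LBD4-OE library (1.47% of all genes). Both steps were free of overlap in 6 members and in 0.0616% of all genes. The rule used these comparisons, and nothing is read from the excess over all genes.

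The 6 members whose 22 libraries fell in full order lay on chromosomes 1, 5, 6, 8, 17 and 19. The member on chromosome 6 (23364198 to 23366967, minus strand) had 14.96 to 18.3 CPM over the 5 WT libraries, 27.2 to 36.6 CPM over the 8 LBD4-OE libraries and 37.4 to 43.8 CPM over the 9 LBD11-OE libraries. Its larger step was the first, from WT to LBD4-OE. For the member on chromosome 8 (2533712 to 2537242, minus strand) the ranges were 2.86 to 4.41, 4.52 to 6.43 and 12.4 to 24.3 CPM, and here the larger step was the second. The member on chromosome 5 (14999367 to 15013980, minus strand) ran from 22.6 to 30.9 CPM in WT, from 32.2 to 45.7 CPM in LBD4-OE and from 53.0 to 69.6 CPM in LBD11-OE. In the member on chromosome 1 (10883902 to 10891335, plus strand) WT spread widely, from 41.3 to 90.4 CPM, below 95.0 to 123 CPM in LBD4-OE and 137 to 202 CPM in LBD11-OE. The member on chromosome 19 (14870948 to 14883916, plus strand) was counted least, at 0.907 to 1.74, 2.02 to 2.95 and 3.09 to 6.27 CPM, and its span overlaps that of 3 other gene models on the same strand.

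Counts were also tested across all genes with edgeR's quasi-likelihood F test, in which a gene was called at a Benjamini-Hochberg adjusted p under 0.05 over 25626 genes. All 57 members were called higher in LBD11-OE than in WT, where 16.1% of all genes were called higher. Against WT, 44 members were called higher in LBD4-OE, with 2.71% of all genes. LBD11-OE exceeded LBD4-OE by this test in 39 members, with 8.08% of all genes. Both steps were called in 33 members, the first alone in 11, the second alone in 6 and neither in 7. As the rule used the same contrasts, the counts say only in how many members each step exceeded the spread between libraries.

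The number of members called in the first step varied with the test and the libraries more than that in the second. DESeq2 called 52 members higher in LBD4-OE than in WT (4.69% of all genes) and 41 higher in LBD11-OE than in LBD4-OE (8.69%). In limma voom with no line block, the counts were 35 (2.33%) and 40 (8.17%). With a random line block added in limma voom, which allows libraries of a line to be correlated and estimated that correlation at 0.083, they were 9 (0.425%) and 35 (6.38%). LBD11-OE was called above WT in all 57 members by each of these 3 fits, with 11.8% of all genes in the blocked one. By edgeR the 44 members of the first step became 28 without WT replicate 3 and 24 without WT replicate 5. Over all genes, 694 of 25626 called higher became 304 of 25753 and 271 of 25764 in the same runs. Within the larger library set, with 4 WT, 5 LBD4-OE and 6 LBD11-OE libraries, 27 members were called higher in LBD4-OE (1.6% of all genes), and with library set as a term in the model 50 were (5.37%).

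Within the larger library set the members' median difference from WT was 0.59 for LBD4-OE and 1.23 for LBD11-OE, and 38 members met the 0.4 limit in both of its LBD4-OE lines. In the smaller set, where WT replicate 3 is the sole WT library, the medians were 1.02 and 1.61 and 53 members met the limit. Of all 22726 genes at 1 CPM or more in WT, 294 met it in the larger set and 3503 in the smaller. The counts of members in the sets are therefore not compared with each other. The median step from LBD4-OE to LBD11-OE was 0.53 in the larger set and 0.50 in the smaller. Each transgenic line lies wholly in 1 set, so the rule had fixed the order of LBD4-OE and LBD11-OE lines within both sets. Only the WT libraries are divided between the sets.

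**Figure D3:**
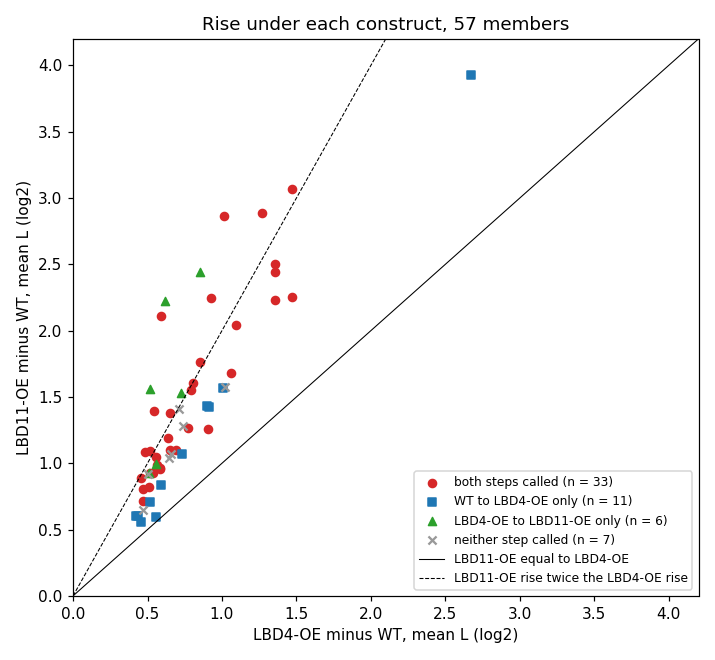
LBD11-OE minus WT against LBD4-OE minus WT in mean L (log2) for the 57 members, marked by which of the 2 steps edgeR called. The solid line marks equal rises and the dashed line an LBD11-OE rise of 2 times the LBD4-OE rise on this scale; 43 members lie between the lines, 33 are called in both steps and 7 in neither.

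On the log2 scale LBD4-OE reached 27.8% to 93.0% of the difference between LBD11-OE and WT, with a median of 57.6%. In 43 members the step from WT to LBD4-OE was larger than that from LBD4-OE to LBD11-OE, and in 14 it was smaller. The rule shaped both values, since it required 0.4 of the first step in every LBD4-OE line and anything above 0 of the second. Without WT replicate 3 the numbers were 35 and 22 with a median share of 53.7%, within the larger library set 31 and 26 with 53.2%, and within the smaller set 51 and 6 with 69.1%. The lowest share belonged to a member on chromosome 11 (1595732 to 1598089, plus strand), whose mean was 2.67 ± 1.25 CPM over the 5 WT libraries (SD), 4.18 ± 1.45 CPM over the 8 of LBD4-OE and 13.4 ± 2.62 CPM over the 9 of LBD11-OE. Its WT and LBD4-OE libraries overlapped and its LBD11-OE libraries, at 9.80 CPM or more, lay above both. The highest share was that of a member on chromosome 2 (15881356 to 15887644, minus strand), at 13.5 ± 1.26, 19.99 ± 1.79 and 20.6 ± 1.35 CPM in the same order. Its LBD4-OE and LBD11-OE libraries overlapped over nearly their whole ranges, 18.3 to 23.2 and 18.5 to 22.8 CPM, so that it is graded by its line means alone. The largest second step, 1.85 on the log2 scale, was that of a member on chromosome 1 (33415161 to 33418804, minus strand). It ran from 3.15 to 8.77 CPM in WT, from 7.71 to 13.7 CPM in LBD4-OE and from 20.3 to 66.5 CPM in LBD11-OE, with overlap between WT and LBD4-OE and a gap before LBD11-OE.

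The members fell into 3 sizes of difference between LBD11-OE and WT. In 13 members the difference was at least 2 on the log2 scale. These were counted little in WT, at 1.02 to 10.6 CPM with a median of 3.21 CPM, and had a median of 20.4 CPM in LBD11-OE. Their median step was 1.27 from WT to LBD4-OE and 1.32 from there to LBD11-OE. All 13 had every LBD11-OE library above every WT library (4.36% of all genes), which the cut at 2 on the same difference favours. For the first step edgeR called 11 of them (2.71% of all genes). Limma voom with the random line block called 0 of them (0.425%), with adjusted p-values of 0.0876 to 0.333 for these 13. The second step was called by edgeR in 12 (8.08%). The rule and the size classes used the same differences, so these counts are a description.

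In 25 members the difference was between 1 and 2, with a WT median of 5.40 CPM and median steps of 0.73 and 0.55. In the remaining 19 it was under 1, with a WT median of 17.3 CPM and median steps of 0.51 and 0.34. For the first step edgeR called 18 of the 25 and 15 of the 19 (2.71% of all genes), and blocked limma voom called 3 and 6 (0.425%). The most counted member of all, on chromosome 16 (811593 to 813734, minus strand), was in the group under 1. It had 155 to 247 CPM in WT with a median of 222 CPM, 246 to 366 CPM in LBD4-OE with a median of 298 CPM, and 335 to 531 CPM in LBD11-OE with a median of 392 CPM. Neighbouring groups overlapped in it, LBD4-OE and LBD11-OE between 335 and 366 CPM, while the highest WT library, at 247 CPM, lay just above the lowest LBD4-OE library, at 246 CPM.

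The largest difference between LBD11-OE and WT was that of Potri.009G129900.v4.1 (chromosome 9, 10614884 to 10617295, minus strand). Its WT libraries had 3.36, 3.81, 0.367, 3.01 and 2.65 CPM in replicates 1 to 5. Replicate 3 was the low one. LBD4-OE-11 had 8.70, 26.7 and 24.7 CPM, LBD4-OE-14 had 10.4 and 13.3 CPM, and LBD4-OE-17 had 10.04, 53.0 and 24.0 CPM. In LBD11-OE the lowest, median and highest libraries had 15.2, 44.6 and 76.4 CPM. Every transgenic library exceeded every WT library, and the constructs overlapped, with LBD4-OE-17 replicate 2 above 6 of the 9 LBD11-OE libraries. In mean L the gene lay 2.67 above WT in LBD4-OE and a further 1.26 above that in LBD11-OE. These steps were 2.22 and 1.52 within the larger library set and 4.42 and 0.73 within the smaller, whose only WT library is the low replicate 3.

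Potri.019G094100.v4.1 (chromosome 19, 13112869 to 13114224, minus strand) came next. WT libraries had 8.50, 2.67, 4.805, 7.03 and 3.52 CPM. LBD4-OE libraries ran from 8.36 CPM over a median of 13.9 CPM to 47.3 CPM, and LBD11-OE libraries from 20.5 CPM over a median of 52.1 CPM to 63.7 CPM. WT and LBD4-OE touched, since WT replicate 1 lay above the lowest 2 LBD4-OE libraries, while every LBD11-OE library was above every WT library. LBD4-OE-17 replicate 2 was again the high one of LBD4-OE, and the next highest had 18.9 CPM. The gene lay 1.47 above WT in LBD4-OE and a further 1.59 above that in LBD11-OE in mean L. The steps were 1.47 and 1.79 within the larger set and 1.49 and 1.21 within the smaller.

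**Figure D4:**
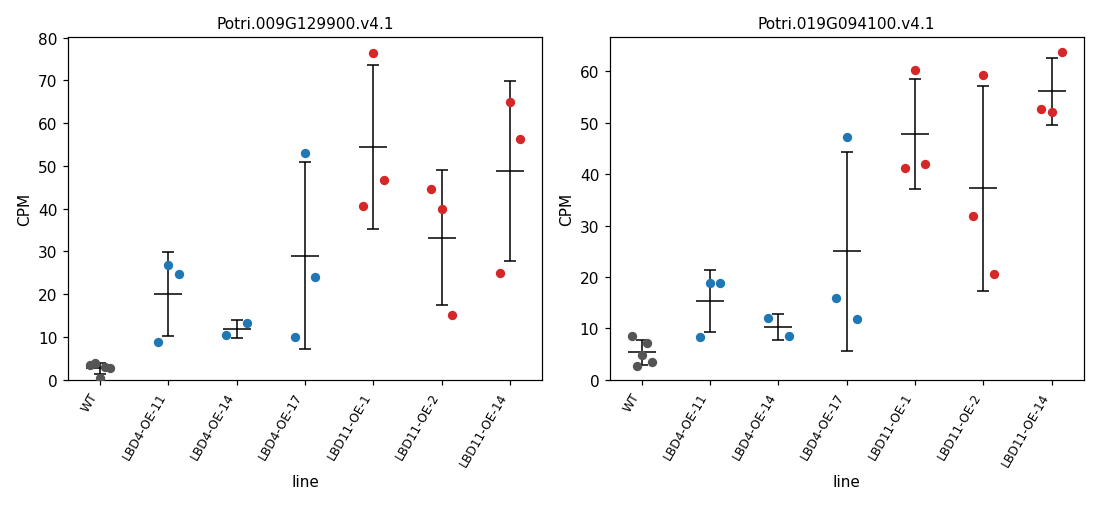
CPM of Potri.009G129900.v4.1 (left) and Potri.019G094100.v4.1 (right) in each library (points) by line, with the line mean and SD in black. WT lies under 10 CPM in both, and the highest LBD4-OE point is LBD4-OE-17 replicate 2, at 53.0 and 47.3 CPM.

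The differences among the 3 lines of a construct are a contrast that the rule did not use directly, although it set a floor for each line. It also kept every LBD4-OE line below the lowest LBD11-OE line. The spread among the LBD4-OE lines was thus bounded by the choice of members. Joint edgeR tests of the line means were adjusted over 26271 genes. Among the LBD11-OE lines 1 of the 57 members differed, where 1.36% of all genes did. The count was 2 without WT replicate 3, a run for which no share over all genes is given here. At an unadjusted p under 0.05 the count was 8 members, or 14% of them, with 11.1% of all genes. Among the LBD4-OE lines 0 members differed by edgeR or by DESeq2, and 4 did at an unadjusted p under 0.05, or 7.02%, against 9.95% of all genes. By edgeR the adjusted share over all genes was 0.194%, and that by DESeq2 is not given here. The members' shares are thus near the background, and a p that misses the threshold does not show that the lines are alike. Lines held only 2 or 3 libraries each.

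The member that differed among the LBD11-OE lines lies on chromosome 17 (12198055 to 12199937, minus strand) and is one of the 6 in full order. It is singled out by its test result. Its WT libraries had 22.7, 22.6, 18.999, 19.5 and 23.8 CPM, and its LBD4-OE libraries ran from 26.2 CPM over a median of 29.6 CPM to 38.2 CPM. In LBD11-OE, line 1 had 49.02, 52.5 and 71.9 CPM, line 2 had 46.3, 53.9 and 47.1 CPM, and line 14 had 96.6, 77.2 and 111 CPM. Every library of line 14 lay above every library of lines 1 and 2. Its mean L was 2.11 above WT, against 1.39 in line 1 and 1.18 in line 2, and the edgeR adjusted p of the joint test was 5.054e-04.

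As to the order of the lines, the mean of LBD11-OE-2 was the lowest of the 3 LBD11-OE lines in 36 members and the highest in 6. It was the highest line for 10.5% of members and for 44.4% of all genes at 1 CPM or more in WT. LBD11-OE-1 was highest in 27 members (47.4%, with 34.4% of all genes) and LBD11-OE-14 in 24 (42.1%, with 21.2%). Replicate 3 of LBD11-OE-2 alone was the lowest of the 9 LBD11-OE libraries in 27 members. Among the LBD4-OE lines, line 17 was highest in 32 members (56.1%, with 34.7% of all genes). Line 14 was highest in 14 (24.6%, with 21.7%) and line 11 in 11 (19.3%, with 43.6%). LBD4-OE-17 replicate 2 alone was the highest of the 8 libraries in 30 members. For the lowest line and for single libraries no share over all genes is given here, and nothing is read from those counts. The shares for the highest line rest on counts scaled to library totals alone. On that scale the medians of all genes relative to WT were -0.05, -0.02 and -0.09 in LBD11-OE-1, LBD11-OE-2 and LBD11-OE-14. They were 0.008, -0.05 and -0.02 in LBD4-OE-11, LBD4-OE-14 and LBD4-OE-17. The part of these offsets in the shares was not tested. The members' median line differences from WT were 0.60 to 0.68 for the LBD4-OE lines and 1.18 to 1.30 for the LBD11-OE lines. The rule set a floor for every line and kept the LBD4-OE lines below the LBD11-OE lines. The closeness of these medians is therefore a description.

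Within lines the members moved together from library to library, which the rule did not select for directly. After each line's mean was subtracted, the median correlation between pairs of members over the 22 libraries was 0.25, and 78.2% of the 1596 pairs were above 0. For every 10th gene of the files at 1 CPM or more in WT the median was 0.01 and the share 51.4%. Without the WT libraries the members' median was 0.26 over 17 libraries. With WT replicate 3 and the first library of LBD4-OE-11 both left out it was 0.16 over 20 libraries, with 66.5% of pairs above 0, and without any 1 library it was 0.21 to 0.28. All pairs share the same libraries and many members were counted little, so these values are a description. The libraries farthest from an even split of the members were WT replicate 3 (12 of 57 above the line mean), LBD4-OE-11 replicate 1 (9 above), LBD11-OE-2 replicate 3 (9 above), LBD4-OE-11 replicate 2 (47 above), and WT replicate 4 and LBD4-OE-17 replicate 2 (46 above each).

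The spread between libraries of a line was larger in the members than in all genes. The median SD of L was 0.32 in the members and 0.18 in all genes for WT, 0.38 and 0.16 for LBD4-OE-11, 0.11 and 0.08 for LBD4-OE-14, 0.26 and 0.12 for LBD4-OE-17, and 0.21 to 0.27 and 0.13 for the LBD11-OE lines. The members were also counted less than the typical gene, with a WT median of 5.53 CPM against 18.5 CPM. The rule acts on means of few libraries, which genes of wide spread can pass more easily. The parts of depth and of this choice in the members' spread were not tested.

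By position, 12 of the 57 members had another member within 200000 bases, in 5 places. The member with the second largest difference, on chromosome 19, lies 23436 bases from the third largest (13088082 to 13089433, minus strand), and the spans of this pair are 1355 and 1351 bases. That neighbour had 0.810 to 2.19 CPM over the WT libraries, 2.08 to 14.8 CPM over those of LBD4-OE and 4.96 to 20.02 CPM over those of LBD11-OE. The difference in L between the pair had an SD of 0.20 over the 22 libraries, where each gene alone had an SD of 1.32 and 1.37. A second such pair lies on chromosome 4, at 7262854 to 7263728 and 7268751 to 7269653 on the plus strand, with spans of 874 and 902 bases and no other gene model between. Its members went from 6.26 ± 0.93 and 10.6 ± 2.10 CPM over the 5 WT libraries (SD), by way of 14.2 ± 5.33 and 30.2 ± 12.8 CPM over the 8 of LBD4-OE, to 20.4 ± 6.25 and 53.4 ± 16.2 CPM over the 9 of LBD11-OE. Here the difference in L had an SD of 0.35, where each gene alone had 0.76 and 0.99. Neighbouring genes of like span can be near-identical copies that share reads. Sequences were not used here, so the sharing of reads was not tested and each of these 4 values is uncertain to that extent.

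**Figure D5:**
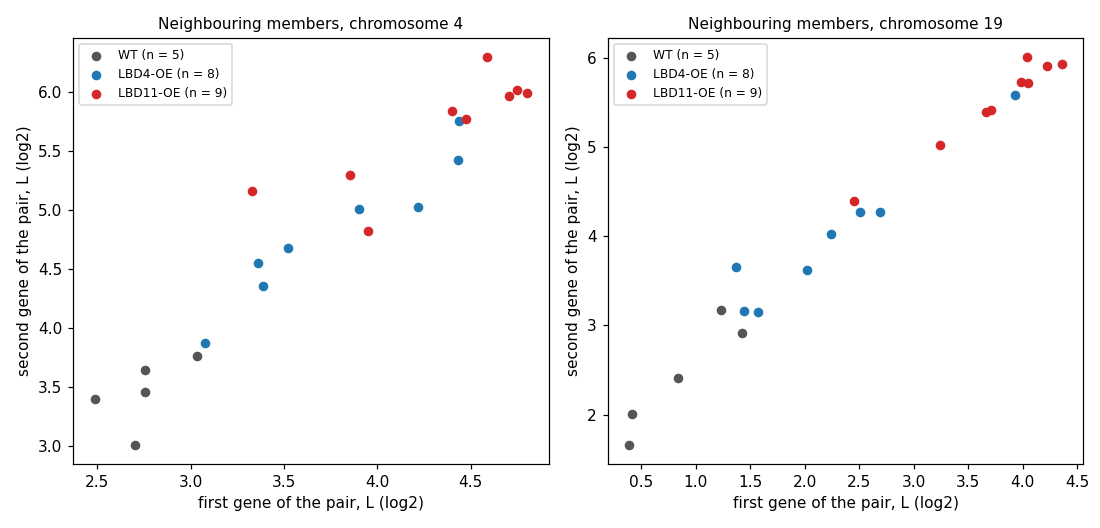
L (log2(CPM + 0.5)) of the second gene against the first gene of 2 pairs of neighbouring members in the 22 libraries, coloured by construct. The chromosome 19 pair keeps close to 1 line, with an SD of the difference of 0.20, and the chromosome 4 pair spreads more, with 0.35; in both, WT lies at the lower left and LBD11-OE mostly at the upper right.

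The other 3 places held members of unlike size. On chromosome 9, 3 members lie within 140017 bases, among them Potri.009G129900.v4.1, with differences between LBD11-OE and WT of 3.93, 2.25 and 0.60 in mean L. The 18 other genes counted at 1 CPM or more in WT between them had a median of 0.02 and at most 0.39. On chromosome 11, 3 members lie within 283243 bases, with 22 such genes between them at a median of 0.07 and at most 1.14. On chromosome 12, 2 members lie within 33344 bases, with 3 such genes between them from -0.03 to 0.71. The nearest genes on either side of all members, 109 in number, had medians of -0.02 for both constructs against WT, and 1 of them, or 0.917%, met the limit in every LBD4-OE line, against 0.942% of all genes.

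Chromosome 11 held 7 members, or 0.841% of its genes at 1 CPM or more in WT, chromosome 9 held 6 (0.586%) and chromosome 7 held 0 of 897, where the share over all chromosomes and scaffolds was 0.251%. Members lay on both strands, 28 on plus and 29 on minus. The spans of 4 members overlap that of another gene model, in 1 case on the opposite strand (chromosome 15, 12724701 to 12730877). The strand setting of the counting is not given in the sources used here, so reads of that member and its partner, at a mean of 1.31 CPM, cannot be told apart with certainty.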

How the data were processed

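The authors deposited 1 table per library with raw read counts per gene, made with HTSeq according to the labels, and all values are whole numbers. Per the submitters' processing notes MultiQC, Trimmomatic, HISAT2 and Cufflinks were also used. Versions, genome build and strand setting are not given in the sources used here. Gene models carry Potri identifiers. If they are from another tree than hybrid aspen, diverged or duplicated genes can be undercounted. Transgene reads were not analysed here.

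The deposited counts entered edgeR 4.0.16 under R 4.3.3 unchanged (TMM, default filter with minimum count 10 and minimum total 15, robust dispersions, quasi-likelihood F test, Benjamini-Hochberg adjustment). Construct contrasts used 3 means and line contrasts 7 means over 22 libraries. Alternatives used DESeq2 1.42.0 and limma 3.58.1, and the scripts were tested on simulated counts. No pair of replicates of a line agreed within sampling noise (lowest chi-square per degree of freedom 5.91). The members, lists and tests were chosen with earlier results of these data known. Identifiers were printed by rule for the 2 largest LBD11-OE minus WT differences. Lists by product name could not be filled.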

Additional observations from a re-analysis of the deposited data

Results flagged for a closer look

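Of 12 sets of values tested per construct for a library far from the others, 6 held one. For values not used in a choice, chance gives about 1 in 20. In WT replicate 3 the median member lay at -0.38 from the WT mean (next 0.03) and the members took 0.111% of counts (next 0.150%). In LBD11-OE-2 replicate 3 the median member lay at 0.97 (next 1.19) and the share was 0.251% (next 0.304%). LBD4-OE-17 replicate 2 was high for both named genes, with 53.0 CPM for Potri.009G129900.v4.1 (next 26.7 CPM) and 47.3 CPM for Potri.019G094100.v4.1 (next 18.9 CPM). The values share libraries and are not independent of each other. They also served to choose the members and the 2 named genes, so the rate of 1 in 20 is no measure for them.

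The lines of LBD11-OE differed in the member on chromosome 17 (12198055 to 12199937), where a joint edgeR test of the line means gave an adjusted p of 5.054e-04. Its line 14 libraries had 77.2 to 111 CPM and those of lines 1 and 2 had 46.3 to 71.9 CPM.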

How the results depend on the processing

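The rule gave 35 genes at a WT minimum of 5 CPM, 110 at a rise limit of 0.3 (all 57 included) and 29 at 0.5. Within the larger library set, which lacks LBD4-OE-11 and LBD11-OE-2, fewer lines had to meet each limit. The rule gave 91 genes there, of which 38 were among the 57 (a run chosen after seeing the data). It gave 71 genes with TMM-scaled libraries (52 shared), 51 and 68 with a pseudocount of 1 or 0.1, 82 with no WT minimum, 38 with WT replicate 3 and the first library of LBD4-OE-11 both left out (31 shared), and 40 to 75 without any 1 library.

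Members called higher in LBD4-OE than in WT numbered 44, and 52 with DESeq2, 50 with library set as a term, 42 without TMM or without the low-count filter, 35 in limma voom with no line block (added after seeing the data), 35 with WT replicate 3 and the first library of LBD4-OE-11 both left out, 27 within the larger set, 22 with the replicate block, 9 in limma voom with a random line block, and 24 to 48 without any 1 library (28 without WT replicate 3, 24 without WT replicate 5). Over all genes 1097 were called in that contrast, and 1978 with DESeq2, 1032 in limma voom with no line block, 166 with a random one, 298 with the replicate block, 599 within the larger set, 2305 with library set as a term, 671 with WT replicate 3 and the first library of LBD4-OE-11 both left out, and 439 to 1549 without any 1 library (549, 492 and 439 without WT replicates 1, 3 and 5, 715 without LBD4-OE-11 replicate 2, 534 without LBD4-OE-17 replicate 2). These totals over all genes count both directions, unlike the member counts, and 694 of the 1097 were higher. With the replicate block 196 genes, or 0.765%, were called higher. The cause of these shifts was not tested. Without TMM, 39.2% of the genes called between LBD11-OE and WT were higher, against 49.7% with it, and of those called between LBD11-OE and LBD4-OE 37.7% against 47.6%.

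Members that differed among the LBD11-OE lines numbered 1, and 2 with DESeq2 or within the larger set, 3 with WT replicate 3 and the first library of LBD4-OE-11 both left out, and 1 to 2 without any 1 library (2 without WT replicate 3). Among the LBD4-OE lines the count was 0 in each alternative run. The shares over all genes in the alternative runs of these line tests are not given here, and nothing is read from their counts. Members called higher in LBD11-OE than in WT were 57 in each, and than in LBD4-OE 35 to 45. Where a left-out library leaves LBD4-OE-14 with 1, that library is assumed to vary like the others. The labels do not say that equal replicate numbers mark anything shared. Of 57 same-numbered pairs of libraries 13 had a correlation of their deviations above 0.1, between -0.55 and 0.43 in all. All 3 pairs of LBD11-OE-1 with LBD11-OE-14 were above it, at 0.15 to 0.28, while LBD11-OE-2 with each of these lines had pairs below it, as did WT with each line. The joint test of the LBD11-OE lines found 1 member with the replicate block too. Counting error is largest for the members near 1 CPM in WT.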
